A study of Mus musculus with 10 samples.

Results

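Mitochondrial ribosomal proteins, encoded in the nucleus by the Mrpl (large subunit) and Mrps (small subunit) genes, were examined in RNA of isolated mouse glomeruli. Every row whose symbol was Mrpl or Mrps followed by digits, with or without 1 closing letter, was taken as a member, whatever its level. That gave 77 of the 12934 genes listed, 48 with Mrpl and 29 with Mrps symbols. The 10 libraries came from wildtype DBA/2J mice aged 17 weeks, a strain labelled as susceptible to diabetic kidney disease, in 3 groups. Non-diabetic saline mice (n = 3) received saline by hydrodynamic injection at 7 weeks and vehicle from 8 weeks. Diabetic saline mice (n = 4) received saline and then streptozotocin, a toxin of pancreatic beta cells. Diabetic Esm-1 mice (n = 3) received a plasmid for mouse Esm-1, a proteoglycan secreted by endothelial cells, together with the Sleeping Beauty transposase, and then streptozotocin. Both diabetic groups, unlike the non-diabetic one, also ate a 60% high-fat diet during 5 weeks, and the effects of streptozotocin and diet cannot be told apart. No group received a plasmid without Esm-1, and none received Esm-1 without diabetes. The labels do not say whether a library is 1 animal, so the p-values measure the spread between these libraries, which may be partly technical.

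Mitochondria keep their own ribosomes, which translate the few proteins encoded in mitochondrial DNA, all of them subunits of the respiratory chain and ATP synthase. The ribosomal RNAs are made inside the organelle, while every protein of the particle is made in the cytosol and imported, so the nucleus must supply a matched set. Many of these proteins descend from bacterial ribosomal proteins, and others were added during mitochondrial evolution. In the kidney, tubule cells are rich in mitochondria, and the transport-active distal convoluted tubule and proximal tubule especially so, whereas glomerular cells hold fewer.

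The proximal promoters of 4 members are shown, chosen by their values in these libraries. Mrpl12 was the member that passed the main test, in Esm-1 against non-diabetic libraries. Mrps7, Mrpl39 and Mrps21 did not pass it in any comparison, but had every library of both diabetic groups above every non-diabetic library. Sequences are RefSeq's, build GRCm38.p6, from 250 bases before to 50 bases after the annotated start site, read 5′ to 3′ on the gene's strand. Capitals mark exact matches, on either strand, of 3 motifs: GCGCA, any base and GCGC for NRF1, CCGGAAG for ETS-family factors including GABP, and AAGATGGC for YY1. Mrpl12 lies at chr11:120484387-120484686 on the plus strand, Mrps7 at chr11:115603890-115604189 on the plus strand, Mrpl39 at chr16:84735195-84735494 on the minus strand and Mrps21 at chr3:95871465-95871764 on the minus strand.
Mrpl12: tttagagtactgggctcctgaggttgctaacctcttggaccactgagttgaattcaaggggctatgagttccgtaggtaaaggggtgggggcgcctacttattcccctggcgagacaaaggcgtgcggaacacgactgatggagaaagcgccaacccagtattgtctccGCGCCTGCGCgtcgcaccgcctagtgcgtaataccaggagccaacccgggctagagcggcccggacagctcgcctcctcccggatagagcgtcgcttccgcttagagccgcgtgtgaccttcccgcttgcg
Mrps7: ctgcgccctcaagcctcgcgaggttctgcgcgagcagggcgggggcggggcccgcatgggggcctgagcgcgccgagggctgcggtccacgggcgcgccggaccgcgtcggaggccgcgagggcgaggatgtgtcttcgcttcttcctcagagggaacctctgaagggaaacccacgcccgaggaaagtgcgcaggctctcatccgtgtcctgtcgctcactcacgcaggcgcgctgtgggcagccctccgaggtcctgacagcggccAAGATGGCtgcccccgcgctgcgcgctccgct
Mrpl39: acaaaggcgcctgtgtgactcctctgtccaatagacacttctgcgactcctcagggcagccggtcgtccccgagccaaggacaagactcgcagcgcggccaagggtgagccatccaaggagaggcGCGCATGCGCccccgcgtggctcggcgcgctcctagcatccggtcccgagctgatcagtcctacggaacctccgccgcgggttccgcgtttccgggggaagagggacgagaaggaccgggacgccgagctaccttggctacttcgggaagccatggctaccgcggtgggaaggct
Mrps21: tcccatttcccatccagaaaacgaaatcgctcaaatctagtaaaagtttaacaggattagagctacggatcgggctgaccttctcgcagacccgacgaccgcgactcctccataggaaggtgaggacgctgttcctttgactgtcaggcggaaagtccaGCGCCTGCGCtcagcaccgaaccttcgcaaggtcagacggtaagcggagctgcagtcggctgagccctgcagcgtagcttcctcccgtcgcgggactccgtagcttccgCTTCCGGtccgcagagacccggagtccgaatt

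NRF1 and GABP, both activators of nuclear genes for mitochondria, and YY1 are known regulators of this class of gene. Of the 77 members, 68 were matched to a RefSeq promoter, and those of Mrps34, Mrpl15, Mrpl13, Mrpl19, Mrpl38, Mrpl54, Mrps28, Mrps35 and Mrpl4 were not. The NRF1 motif was in 13 of the 68 (19.1%), against 4.78% of all 27025 promoters and 10.0% of the 9716 promoters of genes in the expression table. The ETS motif was in 24 (35.3%), against 9.12% and 17.3%. The YY1 motif was in 12 (17.6%), against 2.88% and 4.64%. At least 1 of the 3 was in 41 member promoters (60.3%), against 15.2% and 28.4%, and 8 promoters held 2 or more kinds. Among the promoters printed, those of Mrpl12 and Mrpl39 hold the NRF1 motif, that of Mrps7 the YY1 motif and that of Mrps21 both the NRF1 and the ETS motif. No matches of different motifs overlapped. These counts describe letters in a window and not binding.

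The members were low in these libraries. Rn45s, Lars2 and Mir6236 took 91.1 to 92.8% of the 3931712 to 11300629 reads of a library, which left 338549 to 962321 reads for every other gene. The 77 members together held 415 to 1053 reads per library, with a median of 4 to 12 reads per member, and 72 to 77 of them had a read. In the authors' normalized counts, 1 read was worth 0.619 to 1.77, and the non-diabetic replicate 3 and diabetic saline replicate 4 libraries were the shallowest. Glomerular identity was checked by markers. The summed podocyte markers (Nphs1, Wt1, Podxl and Synpo) ranged from 1210 to 4530 normalized counts per library, with every marker detected in every library. Tubule markers were present as well, as given beside the results.

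Added over all 77 members, the deposited normalized counts were higher in both diabetic groups than in the non-diabetic group. The sums were 610, 622 and 582 in the non-diabetic libraries. They were 776, 708, 769 and 735 in the diabetic saline libraries. In the diabetic Esm-1 libraries they were 686, 874 and 900. No diabetic library fell to the level of a non-diabetic one, whereas the diabetic groups overlapped each other, because Esm-1 replicate 1 lay below every diabetic saline library and Esm-1 replicates 2 and 3 lay above them all. The group means were 605 ± 20.6 (SD, n = 3), 747 ± 31.6 (SD, n = 4) and 820 ± 117 (SD, n = 3), which makes the diabetic saline mean 1.23-fold and the Esm-1 mean 1.36-fold the non-diabetic mean. The Esm-1 mean was 1.1-fold the diabetic saline mean, a difference smaller than the SD of the Esm-1 group. Exact 95% Poisson intervals, which cover counting error only, overlapped for some libraries of different groups. That of non-diabetic replicate 2 (576 to 670) met those of diabetic saline replicate 2 (659 to 760), diabetic saline replicate 4 (666 to 809) and Esm-1 replicate 1 (645 to 728). That of non-diabetic replicate 1 (573 to 650) met that of Esm-1 replicate 1 as well. Per 10000 reads of genes other than Rn45s, Lars2 and Mir6236, the members took 9.83 to 10.6 reads in the non-diabetic, 12.1 to 13.2 in the diabetic saline and 11.9 to 15.4 in the Esm-1 libraries.

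**Figure D1:**
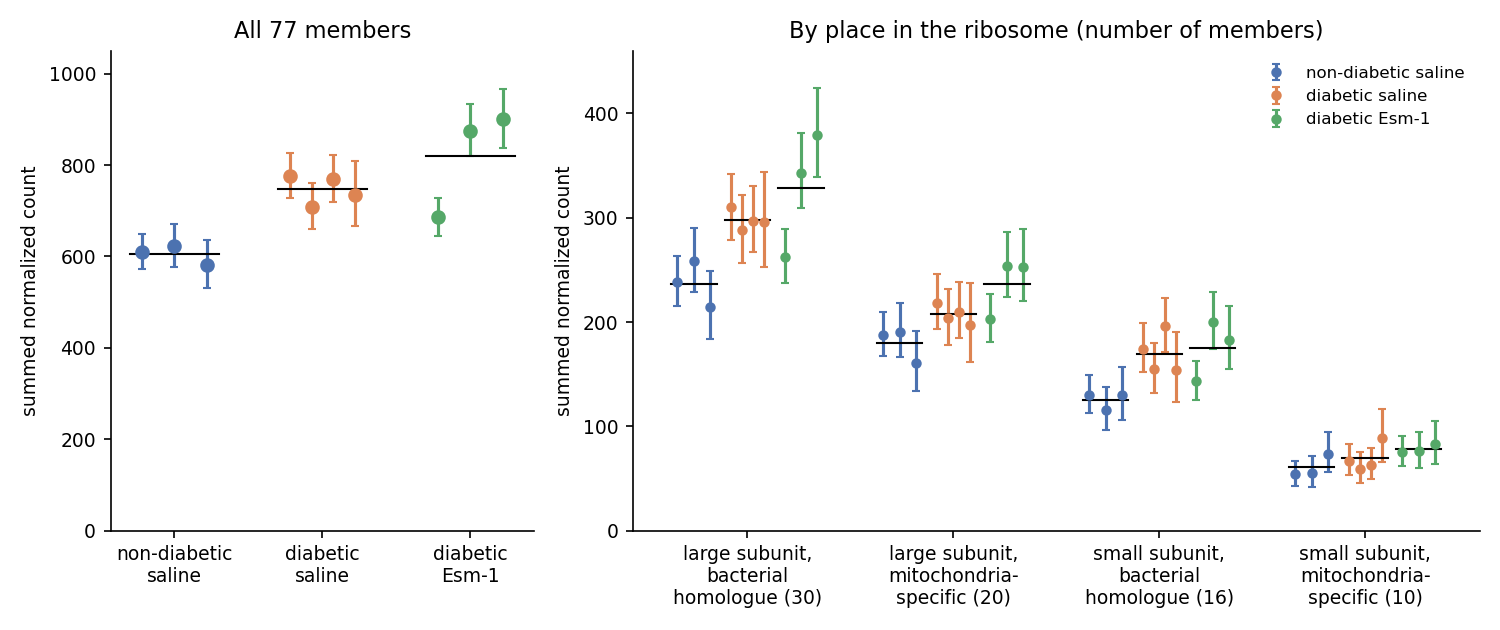
Summed normalized count of the Mrpl and Mrps members (y axis) in each of the 10 libraries (x axis, by group). Points are libraries, error bars are exact 95% Poisson counting intervals and black lines are group means (605, 747 and 820). The 3 non-diabetic libraries, at 582 to 622, lie below all 7 diabetic libraries.

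The shift was spread over many members. Of the 77, 58 (75.3%) had a higher mean in diabetic saline than in non-diabetic libraries, against 50.5% of all rows in the table. For Esm-1 against non-diabetic libraries it was 60 members (77.9%), against 52% of all rows. For Esm-1 against diabetic saline it was 46 (59.7%), against 50.9%. The first 2 of these counts share the non-diabetic libraries and are not independent of each other.

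By structural class, the 30 large-subunit proteins with a bacterial homologue summed to 237 ± 22 in the non-diabetic (SD, n = 3), 298 ± 8.99 in the diabetic saline (SD, n = 4) and 328 ± 59.9 in the Esm-1 group (SD, n = 3). The 16 small-subunit proteins with a bacterial homologue summed to 125 ± 7.94, 170 ± 19.7 and 176 ± 29.2 in the same order. The diabetic saline to non-diabetic ratio was 1.26 for the former and 1.35 for the latter. The 20 large-subunit proteins specific to mitochondria, among which Mrps30 and Mrps18a count despite their symbols, summed to 180 ± 16.4, 207 ± 9.32 and 236 ± 28.9, a ratio of 1.15. The 10 small-subunit proteins specific to mitochondria gave 60.9 ± 11, 69.5 ± 13.1 and 78.1 ± 3.88, a ratio of 1.14, and there the diabetic saline libraries (59.2 to 88.5) overlapped the non-diabetic ones (53.9 to 73.5). Mrps36, which despite its symbol belongs to the alpha-ketoglutarate dehydrogenase complex rather than the ribosome, was the remaining member, at 2.26 ± 1.31, 3.16 ± 2.63 and 1.55 ± 0.752 with the groups overlapping. Whether the classes differ in their ratio was not tested.

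**Figure D2:**
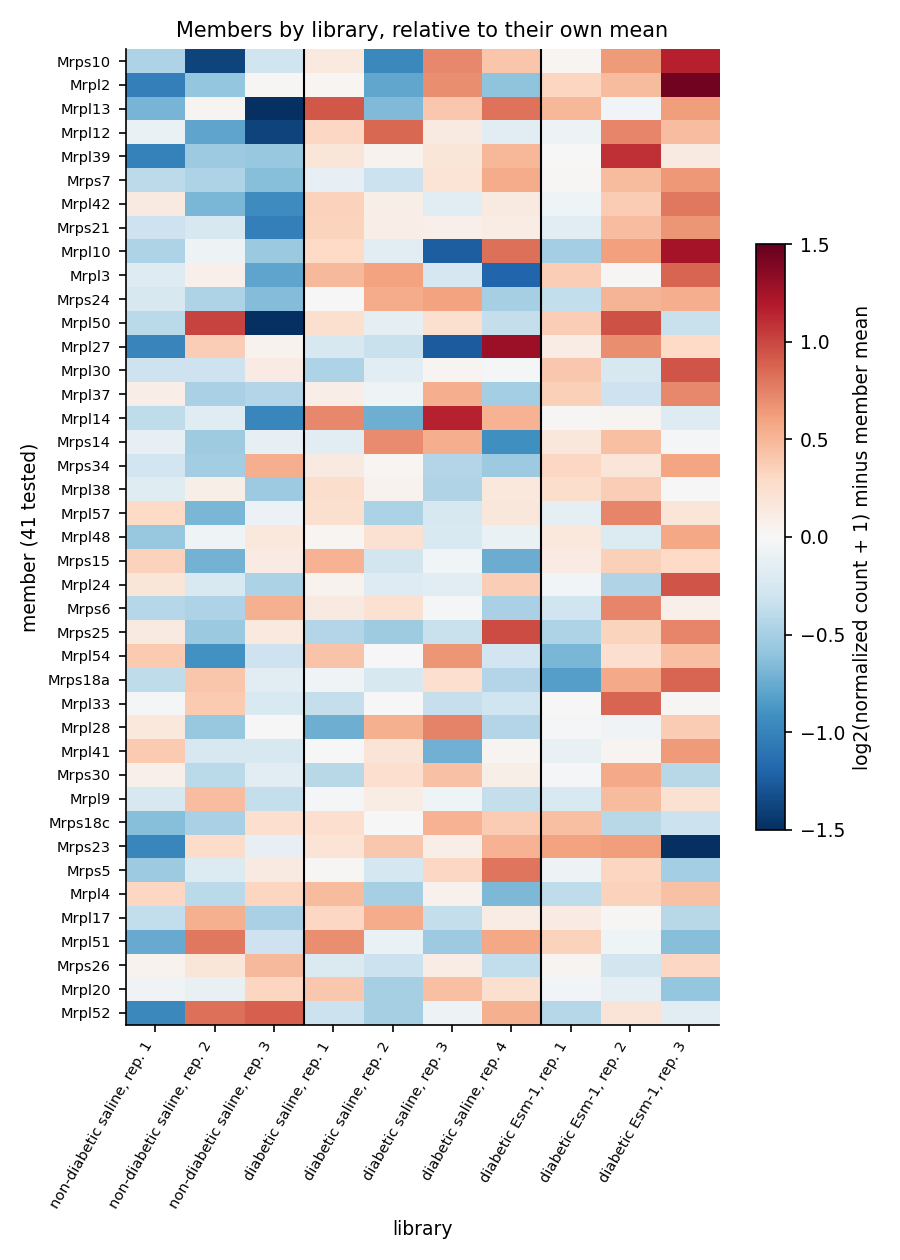
Deviation of each tested member (rows) from its own mean over 10 libraries, in log2 of normalized count plus 1, with libraries in columns by group. Members lie mostly below their mean in the 3 non-diabetic libraries, where 12 to 15 of 41 exceed it, and mostly above it in Esm-1 replicates 2 and 3, where 31 and 29 do.

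Markers of other cell types were set beside the members, and they did not all move with them. The distal convoluted tubule markers (Slc12a3, the thiazide-sensitive cotransporter, Pvalb and Calb1), all 3 detected in every library, summed to 643, 125 and 658 in the non-diabetic libraries. They summed to 2150, 1270, 1650 and 1510 in the diabetic saline libraries and to 1160, 2710 and 3320 in the Esm-1 libraries. All 3 rose in both diabetic groups against the non-diabetic group by limma with Benjamini-Hochberg adjustment. Of all tested genes, 3.73% were called higher in diabetic saline and 7.19% in Esm-1 against non-diabetic libraries. Across the 7 diabetic libraries, the order by these markers was the same as the order by the member sums in all 21 pairs of libraries, including all 9 pairs within a group. In the non-diabetic group it was the same in 0 of 3 pairs, and the members' counting intervals overlapped within each of the saline groups. The same count over diabetic pairs was 15 of 21 for the thick ascending limb, 10 for the collecting duct, 10 for leukocyte and 9 for proximal tubule markers. For mesangial, endothelial and podocyte markers it was 8, 6 and 5. It was 20 of 21 for the subunits of respiratory complex I. This ordering was noticed after the values were seen, and its part in the members' difference was not tested. Podocyte markers went the other way, from 3540 ± 870 (SD, n = 3) in the non-diabetic through 2470 ± 441 (SD, n = 4) in the diabetic saline to 1470 ± 315 (SD, n = 3) in the Esm-1 group. Of the 4, 2 fell in diabetic saline and 4 in Esm-1 against non-diabetic libraries by the same limma test. That test called 1.81% and 8.11% of all tested genes lower. In bulk samples, fewer cells of a type and less RNA per cell cannot be told apart.

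The 7 proximal tubule markers summed to 740 ± 519 (SD, n = 3), 514 ± 219 (SD, n = 4) and 810 ± 284 (SD, n = 3) in the non-diabetic, diabetic saline and Esm-1 libraries, with overlap throughout (349 to 1330, 314 to 819 and 646 to 1140), and Miox was at 0 in 1 library. By limma's adjusted p, 2 of the 7 fell in diabetic saline against non-diabetic libraries, where 1.81% of all tested genes fell. In the comparisons of the Esm-1 group 0 passed, and all 7 were above 0 against diabetic saline. The 3 thick ascending limb markers gave 1230 ± 581, 738 ± 384 and 1130 ± 273, with Cldn16 at 0 in 4 libraries. The 4 collecting duct markers gave 548 ± 123, 983 ± 237 and 812 ± 19, of which Aqp2 alone averaged 451, 845 and 666. Atp6v1g3 and Slc4a1 also had higher means in both diabetic groups, whereas Fxyd4 had lower ones (27.5, 22.1 and 20.3). As for the members, the sum of every diabetic library (777 to 1320) lay above that of every non-diabetic one (433 to 678). Against non-diabetic libraries, limma called 1 of the 4 higher in diabetic saline and 2 in Esm-1 (3.73% and 7.19% of all tested genes). The part of these markers in the members' difference was not tested. Leukocyte markers stayed between 14.6 and 48.9 in every library, with Ptprc at 0 in 1 and Cd3e at 0 in 2 libraries. Endothelial markers summed to 1490 ± 162, 1160 ± 211 and 818 ± 106, with all 6 called lower by limma in Esm-1 against non-diabetic libraries (8.11% of all tested genes). Mesangial markers summed to 887 ± 75.8, 926 ± 186 and 647 ± 83.1 but moved in different directions. Means fell for Pdgfrb (169, 132 and 102), Itga8 (355, 288 and 209) and Des (85.7, 50.3 and 22.9). Serpine2 (220, 388 and 254) and Gata3 (57, 67.9 and 59.3) were highest in diabetic saline. Against non-diabetic libraries, limma called 1 of the 5 higher in diabetic saline (3.73% of all tested genes) and 3 lower in Esm-1.

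Single members were tested with limma on log2 of the normalized count plus 1, a scale on which folds of weakly expressed genes come out too small. Genes with at least 10 in at least 3 libraries entered the fit, 8239 in all and 41 of the 77 members, and p-values were adjusted over all 8239 by Benjamini-Hochberg. A member could pass this filter through the 1 group in which it is high, so the 41 are not a neutral draw from the 77. The 36 members under the filter summed to 153 ± 12.6, 192 ± 17 and 194 ± 28.4 in the 3 groups, and the 41 past it to 453 ± 16.9, 554 ± 24.3 and 626 ± 88.3. For a single member the 95% interval of a log2 difference between groups reached, at the median, 0.78 to either side for diabetic saline against non-diabetic and for Esm-1 against diabetic saline (1.72-fold), and 0.84 for Esm-1 against non-diabetic (1.79-fold). A change of the size seen in the sums lies well inside these widths for any 1 gene.

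Diabetic saline against non-diabetic libraries asks what diabetes with the diet changed. None of the 41 members passed limma's adjusted p of 0.05, where 3.73% of all tested genes were called higher and 1.81% lower. At an unadjusted p under 0.05, 5 were higher and 0 lower, against 9.89% and 8.99% of all tested genes. The 5 were Mrpl42, Mrpl12, Mrpl13, Mrpl39 and Mrps21, which is 12.2% of the members. Under edgeR and DESeq2, 0 members passed the adjusted threshold. Of all tested genes edgeR called 4.03% higher and 2.25% lower, and DESeq2 3.23% and 1.74%. At the unadjusted threshold 4 members were higher in each, with no share over all genes computed. Libraries did not overlap for 3 tested members, all higher (Mrps7, Mrpl39 and Mrps21), and for 0 lower, against 8.19% and 8.34% of tested genes. Mrpl39 reached 10 in no non-diabetic library (highest 6.35) and so passed the filter only through diabetic libraries. Of the 36 members under the filter, Mrps11 did not overlap either and was higher. No share over all genes under the filter was computed. The median log2 difference of the 41 was 0.25 with 32 above 0 (0.14 with a common total of all rows, which moved the median of all genes to -0.089), while the median of all tested genes was -0.0069 with 49.2% above 0. Among the 3367 tested genes in the members' range of mean level, 1.93% were called higher and the median was 0.023, with 52% above 0.

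Esm-1 against diabetic saline libraries asks what the Esm-1 plasmid changed in diabetic mice. limma called 0 members and 0 genes at all (0% higher and 0% lower). At an unadjusted p under 0.05 there were again 0 members in either direction, against 3.75% and 7.16% of tested genes. edgeR gave 0 members at both thresholds and 0 genes at all at the adjusted one. DESeq2 gave 0 members at the unadjusted one and set no adjusted p for any of the 41, so its adjusted threshold says nothing of them, while it called 1 other gene higher and 29 lower. Mrps34, a small-subunit protein specific to mitochondria, was the 1 tested member whose libraries did not overlap, against 3.73% of genes higher and 5.47% lower without overlap. It measured 12.0, 11.1, 7.75 and 7.08 in diabetic saline and 13.7, 12.4 and 16.8 in Esm-1 libraries. The lowest Esm-1 library stood just above the highest diabetic saline one, and the non-diabetic libraries (8.67, 7.26 and 16.2) spanned both. Its log2 difference was 0.56 with a 95% interval from -0.19 to 1.32 (limma, adjusted p = 0.61). The members' median log2 difference was 0.21 with 30 of 41 above 0, against 0.0049 and 50.7% for all tested genes. For the 3367 tested genes in the members' range of mean level it was 0.062 with 56.8% above 0. Leaving out Esm-1 replicate 1, 2 or 3 gave members' medians of 0.36, 0.13 and 0.084. Of the 36 members under the filter, Mrps22 (2.4, 3.7, 3.45 and 3.54 in diabetic saline, 4.56, 5.72 and 5.99 in Esm-1 libraries) was higher without overlap and Mrps28 (4.8, 8.33, 4.31 and 7.08, then 3.26, 3.81 and 3.59) lower. Here too no share over all genes under the filter was computed.

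Esm-1 against non-diabetic libraries combines diabetes, diet and plasmid. Of the 41 members 1 rose, Mrpl12 (2.44%), and 0 fell, against 7.19% of tested genes called higher and 8.11% lower. Whether the members' share differs from that of all genes was not tested. At an unadjusted p under 0.05, 8 were higher and 0 lower, against 13.3% and 14.1%. Libraries did not overlap for 7 tested members, all higher (Mrps14, Mrps7, Mrpl12, Mrpl39, Mrpl2, Mrps10 and Mrps21), against 15.4% of genes higher and 17.4% lower. Mrps14, Mrpl39, Mrpl2 and Mrps10 reached 10 in no non-diabetic library (highest 9.97, 6.35, 8.73 and 4.99). They passed the filter only through diabetic libraries, where they were high, so their lack of overlap is a description only. Of the 36 members under the filter, Mrpl23, Mrpl34, Mrps12, Mrps22 and Mrps33 were higher without overlap and none was lower. The share of all genes under the filter without overlap was not computed, so these names are a description only. The median log2 difference was 0.34 with 37 of 41 above 0, while it was 0.0088 with 50.7% above 0 for all tested genes. The 3367 genes in the members' range had 4.46% called higher and a median of 0.1, with 57.5% above 0.

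**Figure D3:**
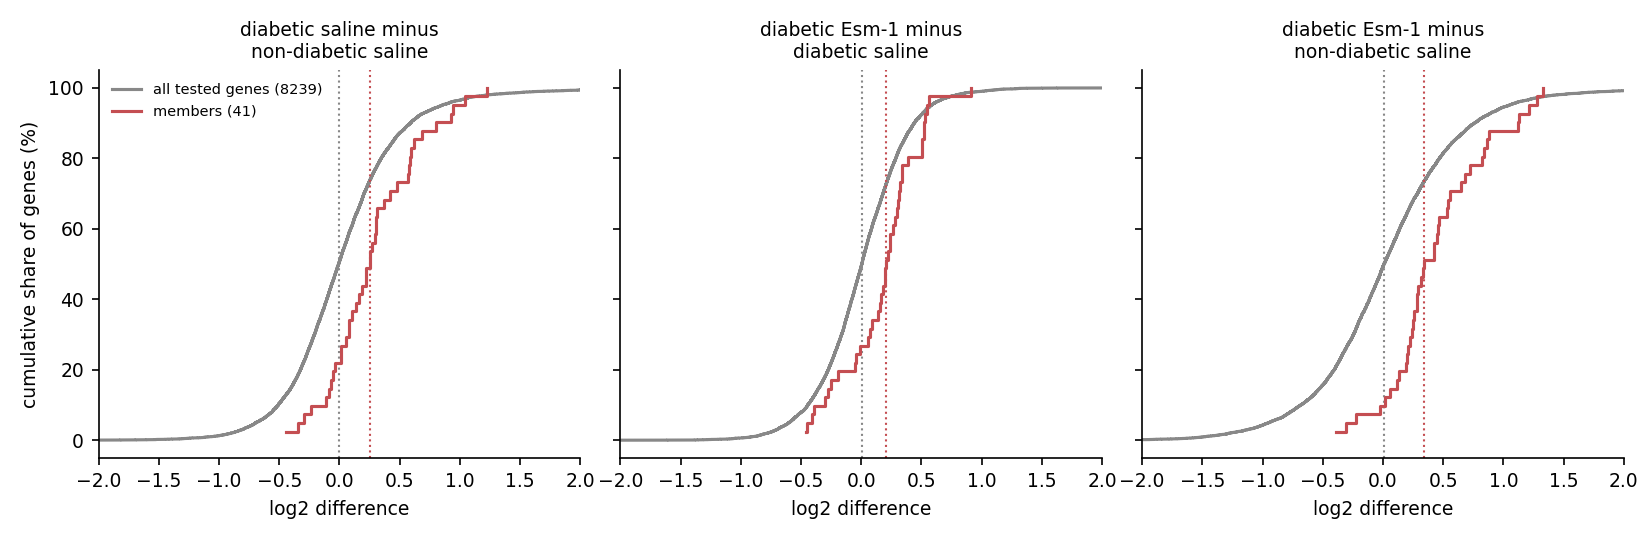
Cumulative share of genes (y axis, percent) by log2 difference (x axis) for the 41 tested members and all 8239 tested genes, 1 panel per comparison. Dotted lines are medians, which for the members are 0.25, 0.21 and 0.34 and for all tested genes lie near 0. The last panel shares its libraries with the other 2.

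Among large-subunit proteins with a bacterial homologue, Mrpl12, the counterpart of the bacterial stalk protein L7/L12 that recruits translation factors, measured 16.7, 9.98 and 6.23 in non-diabetic libraries. It measured 22.4, 33.3, 19.8 and 15.9 in diabetic saline and 16.9, 30.5 and 25.1 in Esm-1 libraries. The lowest Esm-1 library exceeded the highest non-diabetic one only narrowly, and diabetic saline replicate 4 lay just under that one. Mrpl12 rose 2.19-fold in Esm-1 against non-diabetic libraries (log2 1.13, SE 0.35, limma adjusted p = 0.0349), the difference against diabetic saline was 0.089 (adjusted p = 0.955), and diabetic saline against non-diabetic gave 1.04 (SE 0.33, adjusted p = 0.0704). The call rests on few libraries: leaving out non-diabetic replicate 2 or 3, or Esm-1 replicate 2 or 3, gave limma adjusted p-values of 0.0714, 0.148, 0.165 and 0.122. It was also lost under edgeR (adjusted p = 0.0564) and DESeq2 (adjusted p = 0.0836). Diabetic saline against non-diabetic passed for Mrpl12 without non-diabetic replicate 1 (limma adjusted p = 0.0341), and likewise when diabetic saline replicate 4 was left out (adjusted p = 0.0451).

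Mrpl13, which binds the large ribosomal RNA early in assembly, measured 9.91, 17.2 and 3.74 in non-diabetic, 32.8, 10.2, 22.4 and 30.1 in diabetic saline and 24.1, 16.2 and 26.3 in Esm-1 libraries. Diabetic saline replicate 2 and Esm-1 replicate 2 fell below the highest non-diabetic library, so the groups overlapped. The log2 difference was 1.22 against non-diabetic libraries for both diabetic groups (limma adjusted p = 0.0874 for diabetic saline and 0.0675 for Esm-1). Mrpl2, whose bacterial counterpart sits beside the peptidyl transferase centre, measured 3.71, 5.44 and 8.73 in non-diabetic, 8.8, 4.63, 14.6 and 5.31 in diabetic saline and 11.1, 12.4 and 25.1 in Esm-1 libraries. The Esm-1 libraries were all above the non-diabetic ones, and diabetic saline lay across both. Its log2 difference from non-diabetic was 1.28 in the Esm-1 group (limma adjusted p = 0.0817), and edgeR called it. Mrpl33 did not follow this pattern, with 17.3, 23.6 and 15 in non-diabetic, 13.6, 17.6, 13.8 and 14.2 in diabetic saline and 17.6, 33.4 and 18 in Esm-1 libraries.

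Among large-subunit proteins specific to mitochondria, Mrpl39 measured 4.33, 6.35 and 6.23 in non-diabetic, 11.2, 10.2, 11.2 and 14.2 in diabetic saline and 9.77, 21.9 and 10.8 in Esm-1 libraries. Every diabetic library was above every non-diabetic one, with Esm-1 replicate 2 the highest. The log2 differences from non-diabetic were 0.94 (limma adjusted p = 0.166) and 1.12 (adjusted p = 0.0649), and edgeR called the latter. Mrpl42, the member with the highest mean, measured 24.8, 13.6 and 11.2 in non-diabetic, 28.8, 24.1, 19.8 and 24.8 in diabetic saline and 21.5, 29.6 and 39.5 in Esm-1 libraries. Non-diabetic replicate 1 stood among the diabetic values, while replicates 2 and 3 lay below all of them. The differences were 0.6 (limma adjusted p = 0.263) and 0.87 (adjusted p = 0.0607), and the latter passed without non-diabetic replicate 1 (adjusted p = 0.0198) or Esm-1 replicate 1 (adjusted p = 0.0347). Mrpl38 gave 18, 21.8 and 13.7, then 24.8, 21.3, 14.6 and 23, then 24.7, 26.7 and 20.4, with overlap between all groups and limma adjusted p-values from 0.364 to 0.826.

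Mrpl45, which holds the subunit to the inner membrane at the exit tunnel, was under the filter and ran against the majority. It measured 3.1, 7.26 and 8.73 in non-diabetic, 4.8, 2.78, 1.72 and 3.54 in diabetic saline and 5.21, 5.72 and 3.59 in Esm-1 libraries. Those values stand for few reads each, and the groups overlapped. Mrpl44, which carries an RNase III-like fold, ranged from 0.925 to 5.99 across all libraries with overlapping groups. Mrps30 ranged from 7.18 to 15.3 and Mrps18a from 5.21 to 19.2, also with overlap, and the limma adjusted p of both was 0.767 or more in every comparison.

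**Figure D4:**
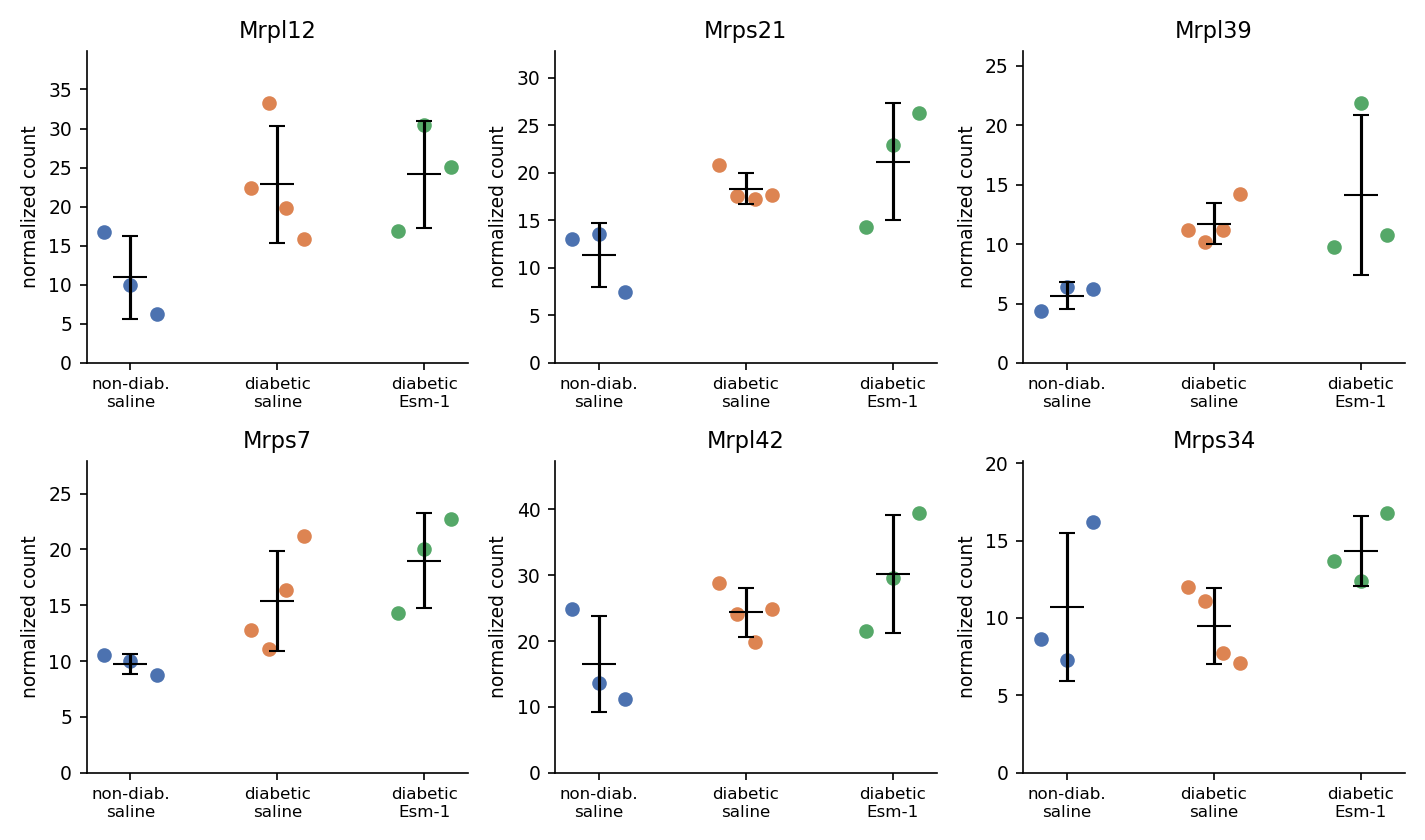
Normalized counts of Mrpl12, Mrps21, Mrpl39, Mrps7, Mrpl42 and Mrps34 in each library (y axis) by group (x axis). Points are libraries and bars show mean ± SD. For Mrpl39 the non-diabetic libraries (4.33 to 6.35) lie below all diabetic libraries (9.77 to 21.9), and for Mrpl42 non-diabetic replicate 1, at 24.8, lies among the diabetic values.

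Among small-subunit proteins with a bacterial homologue, Mrps21 measured 13.0, 13.6 and 7.48 in non-diabetic, 20.8, 17.6, 17.2 and 17.7 in diabetic saline and 14.3, 22.9 and 26.3 in Esm-1 libraries. All 7 diabetic libraries were above the non-diabetic ones, Esm-1 replicate 1 by less than 1 normalized count. The log2 differences were 0.68 (limma adjusted p = 0.216) and 0.84 (adjusted p = 0.0817). Mrps7, a primary binder of the small ribosomal RNA in the head of the subunit, measured 10.5, 9.98 and 8.73 in non-diabetic, 12.8, 11.1, 16.4 and 21.2 in diabetic saline and 14.3, 20 and 22.7 in Esm-1 libraries. Again no diabetic library reached down to the non-diabetic ones, the nearest being diabetic saline replicate 2. Its differences were 0.57 (limma adjusted p = 0.336) and 0.88 (adjusted p = 0.081). Mrps10 went from 4.33, 1.81 and 4.99 through 7.2, 2.78, 11.2 and 8.85 to 6.51, 10.5 and 15.6, without overlap for the Esm-1 group (log2 1.33, limma adjusted p = 0.12). Mrps14 had 9.91, 7.26 and 9.97 in non-diabetic and 12.4, 15.3 and 10.8 in Esm-1 libraries, while diabetic saline ran from 5.31 to 18.5 (log2 0.46 for Esm-1 against non-diabetic, limma adjusted p = 0.524).

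Mrps6, the member with the next highest mean after Mrpl42, gave 14.9, 14.5 and 29.9 in non-diabetic, 22.4, 24.1, 19.8 and 14.2 in diabetic saline and 16.3, 34.3 and 21.5 in Esm-1 libraries, so the highest non-diabetic library exceeded every diabetic saline library. Its log2 difference of diabetic saline from non-diabetic was 0.077 (limma adjusted p = 0.927) and 0.55 (adjusted p = 0.381) without non-diabetic replicate 3 and diabetic saline replicate 4. Of the S18 relatives, Mrps18c, the one that takes the place of bacterial S18, had a log2 difference of 0.58 (limma adjusted p = 0.459) for diabetic saline against non-diabetic and -0.39 (adjusted p = 0.763) for Esm-1 against diabetic saline. Mrps18b, under the filter, ranged from 3.63 to 8.67 in non-diabetic, 1.72 to 8.85 in diabetic saline and 0 to 4.77 in Esm-1 libraries.

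The decoding-site protein Mrps12 was also under the filter, at 4.33, 4.53 and 1.25 in non-diabetic, 3.2, 7.4, 7.75 and 0 in diabetic saline and 7.16, 9.54 and 7.18 in Esm-1 libraries. The 0 belongs to the shallowest library, where 3 reads would be worth 5.31. The Esm-1 libraries lay above the non-diabetic ones, and Esm-1 replicate 2 also above every diabetic saline one. Mrps22 and Mrps16, in both of which human mutations cause mitochondrial disease, ranged from 1.25 to 5.99 and from 0 to 7.75 across all libraries. Mrps27, a pentatricopeptide repeat protein, ranged from 1.85 to 7.75. Groups overlapped for Mrps16 and Mrps27, whereas the Esm-1 libraries of Mrps22 (4.56 to 5.99) lay above all others (1.25 to 4.53). These values stand for few reads, and the genes were not tested. Mrpl12, Mrpl42, Mrps6 and Mrpl38 and the members named here for their roles came from the rule in the methods, whereas Mrps7, Mrpl39, Mrps21, Mrpl13, Mrpl2, Mrps10, Mrps14, Mrps34, Mrpl33, the untested members named for lack of overlap and the extremes of level per length were named after their values were seen.

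Levels can be compared between members per length of transcript. Per kb of annotated principal transcript (GENCODE M21, a different build from the authors'), the members' mean level over the 10 libraries ran from 0.589 to 38.5 normalized counts per kb, with a median of 5.07 and quartiles of 2.61 and 11.1. Mrpl33 was at 38.5 (28.5 to 69.9 across libraries), Mrps21 at 38.3 (16.8 to 58.9) and Mrpl42 at 35.9 (16.9 to 59.5), so these 3 do not differ beyond their spread. Mrps6 followed at 25.1 (16.8 to 40.5) and Mrpl52 at 21.5 (8.88 to 38.8), again with overlapping ranges. This order pools groups with different means. In the non-diabetic libraries alone the means per kb were 38.9 for Mrpl33, 28.2 for Mrpl52, 25.5 for Mrps21, 24.9 for Mrpl42 and 23.4 for Mrps6. At the low end, Mrpl47 was at 0.589 (0 to 1.48), Mrpl35 at 1.13 (0.513 to 1.93) and Mrpl15 at 1.17 (0.68 to 1.84) per kb. Transcript lengths ran from 418 to 7300 bases, and the choice of annotated transcript bears on the lowest values. The members lie on 17 chromosomes. The reference names 6 pseudogenes of 4 members (Mrpl23, Mrpl27, Mrpl48 and Mrps36), whose reads the counting could have split, so these 4 are uncertain.

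**Figure D5:**
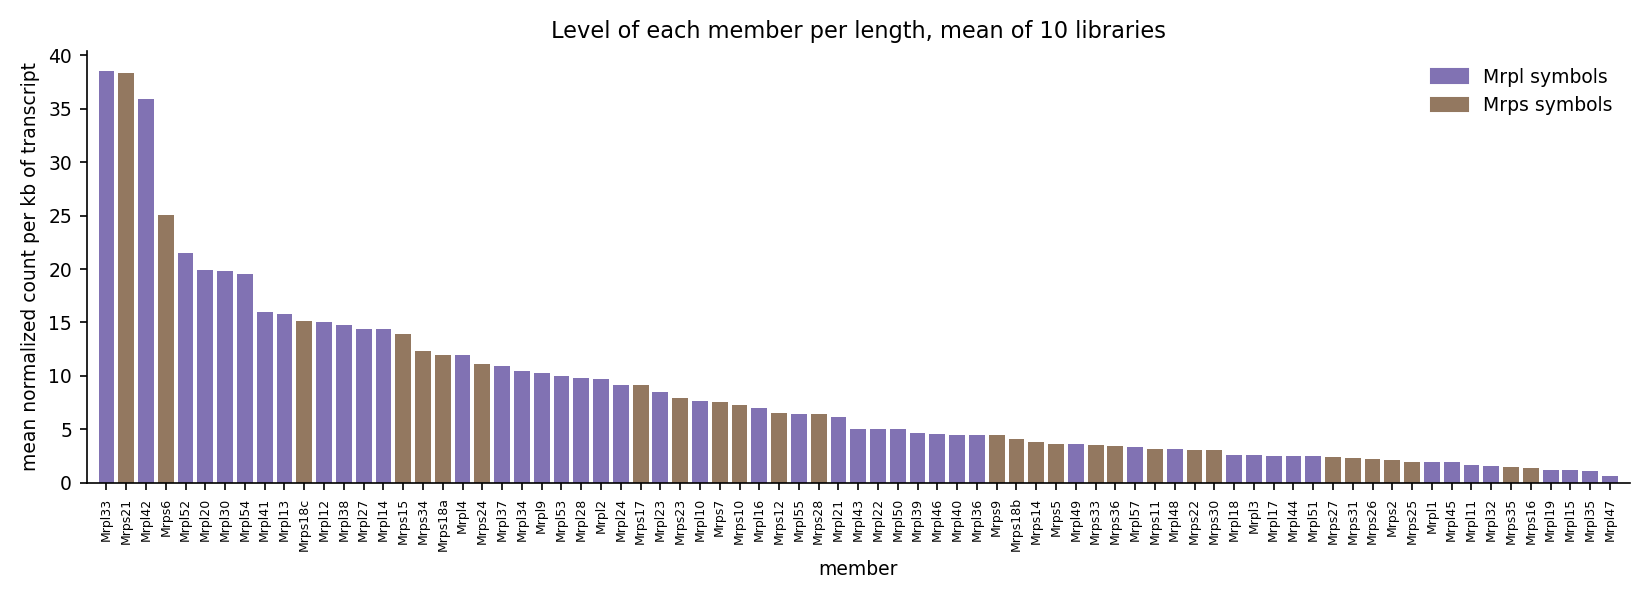
Mean normalized count per kb of principal transcript over 10 libraries (y axis) for each of the 77 members (x axis, in order of level), coloured by Mrpl or Mrps symbol. Pooled over groups, Mrpl33, Mrps21 and Mrpl42 lead at 38.5, 38.3 and 35.9 per kb and Mrpl47 is lowest at 0.589, and in non-diabetic libraries alone Mrpl52 (28.2) exceeds Mrps21 (25.5) and Mrpl42 (24.9).

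Other genes of mitochondrial translation were read beside the members. Of 6 mitoribosomal proteins under other symbols, 4 were tested and 0 passed limma's adjusted threshold in any comparison. Of these, Aurkaip1 had a log2 difference of 0.54 for Esm-1 against non-diabetic (limma adjusted p = 0.258). Of 25 assembly and ribosomal RNA modification factors, 4 were tested and 0 passed, and Dhx30, an RNA helicase of assembly, had 0.39 (limma adjusted p = 0.365). Of 14 translation factors 6 were tested. Tufm, the elongation factor that delivers aminoacyl-tRNA, rose 2.21-fold in Esm-1 against non-diabetic libraries (means 42.1 and 18.4, limma adjusted p = 0.00261). In diabetic saline against non-diabetic libraries Tufm was 1.70-fold (means 32.2 and 18.4, limma adjusted p = 0.0491), a call lost under edgeR (adjusted p = 0.057), DESeq2 (adjusted p = 0.136) and when any library other than diabetic saline replicate 2 was left out (adjusted p 0.0512 to 0.137).

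Of 17 listed mitochondrial aminoacyl-tRNA synthetases 5 were tested. Lars2, which with Rn45s and Mir6236 took most reads, was left out of this list. Tars2 fell in diabetic saline against non-diabetic libraries (log2 -1.1, means 12.4 and 27.8, limma adjusted p = 0.0276), and this was lost without non-diabetic replicate 1 or 3 or diabetic saline replicate 1 or 3 (adjusted p 0.058 to 0.126). Iars2 (log2 0.8, limma adjusted p = 0.0426) and Vars2 (log2 1.33, limma adjusted p = 0.0479) rose in Esm-1 against non-diabetic libraries. Both calls were lost under DESeq2 (adjusted p = 0.113 and 0.0744) and without any 1 of the 3 Esm-1 libraries. They were also lost without any of several saline libraries, up to an adjusted p of 0.142 for Iars2 and 0.183 for Vars2 over all libraries left out. Of 8 genes of mitochondrial transcription and DNA maintenance 3 were tested and 0 passed limma's adjusted threshold, with Polg, the mitochondrial DNA polymerase, at a log2 difference of 0.54 for Esm-1 against non-diabetic (adjusted p = 0.136). Of 9 biogenesis regulators 8 were tested. Yy1 fell in Esm-1 against non-diabetic libraries (log2 -0.65, means 45.5 and 71.5, limma adjusted p = 0.0325), a call lost under DESeq2 (adjusted p = 0.0677) and without any 1 non-diabetic library or Esm-1 replicate 2 or 3 (adjusted p 0.0513 to 0.162). Pprc1, with -0.36 in diabetic saline against non-diabetic (limma adjusted p = 0.305), did not pass, nor did Esrra, with 0.48 in Esm-1 against diabetic saline (adjusted p = 0.657).

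The subunits of respiratory complex I, some of which mitochondrial ribosomes make while the nuclear genes listed here encode the rest, were the closest comparison. Of 34 tested, 8 rose and 0 fell in diabetic saline against non-diabetic libraries, where 3.73% of all tested genes rose and 1.81% fell. In Esm-1 against non-diabetic libraries 23 rose and 0 fell, against 7.19% and 8.11% of all tested genes. Between the diabetic groups 0 passed limma's adjusted threshold. Ndufc2 rose 2.1-fold (limma adjusted p = 0.00198) and Ndufa13 1.93-fold (adjusted p = 0.00547) in diabetic saline against non-diabetic libraries. Summed over 35 subunits, the normalized counts were 908 ± 22.5 (SD, n = 3), 1500 ± 44.8 (SD, n = 4) and 1760 ± 321 (SD, n = 3), ratios of 1.65 and 1.94 to the non-diabetic mean. The corresponding ratios of the Mrpl and Mrps members were 1.23 and 1.36. By library the complex I sums were 931, 906 and 886, then 1550, 1480, 1510 and 1450, then 1400, 1860 and 2020, so Esm-1 replicate 1 was the lowest diabetic library here too. The 73 cytosolic ribosomal proteins, which share no particle with the members, summed to 5440 ± 129, 5900 ± 330 and 5710 ± 129, ratios of 1.08 and 1.05, and 0 of the 71 tested passed limma's adjusted threshold in any comparison. Whether the members' ratio differs from either of these was not tested.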

How the data were processed

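RNA of isolated glomeruli was measured in 10 libraries of 3 groups, given by the labels, with replicate numbers in the order of the records. Per the submitters' processing notes, reads were processed with Trimmomatic 0.36, STAR 2.5.3a, the mm9 build, DESeq2 1.28.1 and R 4.0.2. The counting program is not given in the sources used here, nor are the annotation and strandedness. The deposited values are a signal per gene, the authors' DESeq2 normalized counts. Dividing by each library's smallest positive value gave whole reads for 100% of values within 0.001.

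Values were analysed as log2(normalized count + 1) in 1 limma 3.58.1 fit (R 4.3.3) of all 10 libraries with an intensity trend. Tests were two-sided, with Benjamini-Hochberg adjustment over the 8239 genes reaching 10 in 3 or more libraries and a threshold of 0.05. The 4695 other rows were summed but not tested. The limma fit was tested on simulated counts with known folds. Over the 3 comparisons it recovered 8.12 to 13.8% of 1.5-fold, 50 to 61.9% of 2-fold and 91.5 to 95.3% of 4-fold changes. The changed genes were drawn from all tested genes, whose median residual SD within groups was 0.33 in log2, against 0.45 for the members. Recovery at the members' low level was not simulated, so these rates do not hold for them. False calls were counted over all tested genes too. Of its calls, 3.61 to 8.61% were false, the most in diabetic saline against non-diabetic. Alternatives were dropping the filter, a pseudocount of 5, 1 common library total with and without Rn45s, Lars2 and Mir6236, edgeR 4.0.16 and DESeq2 1.42.0 on the recovered reads, no trend, fits of 2 groups, a term for title numbers under 100, both libraries with such numbers left out, and each library left out. The title numbers under 100 are those of non-diabetic replicate 3 (30) and diabetic saline replicate 4 (16). No Esm-1 library has one, and the labels do not say what these numbers stand for. Members and lists were chosen with earlier results of these data known. Named by rule were members past the threshold, the 2 with the highest mean, those with the largest differences among means of at least 20, and 12 for their roles, and of each further list up to 3 genes past the threshold or else the 1 with the largest difference. Some podocyte markers chosen at the start are not reported here and were left out of the marker sums.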

Additional observations from a re-analysis of the deposited data

How the results depend on the processing

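The ratios of summed counts stayed above 1 and the members' median differences above 0 under every alternative run. The ratio of summed counts lay between 1.16 and 1.26 for diabetic saline against non-diabetic and between 1.27 and 1.38 for Esm-1 against non-diabetic, the lower ends with a common total of all rows, which moved the median of all genes by less than 0.1. For Esm-1 against diabetic saline it was 1.01 over the 36 members under the filter, an alternative chosen after seeing the data. Leaving out each library in turn gave ratios of 1.21 to 1.26, 1.29 to 1.47 and, between the diabetic groups, 1.04 to 1.19, and medians of 0.17 to 0.27, 0.33 to 0.47 and 0.084 to 0.36, the last 0.36 without Esm-1 replicate 1 and 0.084 without Esm-1 replicate 3. Over the other alternatives the medians ran from 0.14 (common total of all rows) to 0.32 (both libraries with title numbers under 100 left out) for diabetic saline against non-diabetic, from 0.26 to 0.45 for Esm-1 against non-diabetic and from 0.16 to 0.23 between the diabetic groups.

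The calls were less stable. In Esm-1 against non-diabetic, members called higher numbered 2 under edgeR (Mrpl39 and Mrpl2), where 7.87% of all tested genes were called higher. They numbered 2 under edgeR with no filter, an alternative chosen after seeing the data, where 4.9% of genes were. DESeq2 called 0 members higher, against 6.08% of genes. At an unadjusted p under 0.05 it had 8 members higher, with no share over all genes computed. With a term for title numbers under 100 the count was 0, against 6.91% of genes. Without the trend limma called Mrpl39 instead of Mrpl12 (4.65% of all tested genes higher), and without both libraries with title numbers under 100 Mrpl2 (7.32%). Leaving out each library gave 0 to 3 (3.4 to 7.82% of all tested genes higher), with 0 without non-diabetic replicate 3, Esm-1 replicate 2 or Esm-1 replicate 3, and 3 (Mrpl42, Mrpl12 and Mrps21) without Esm-1 replicate 1. In diabetic saline against non-diabetic it gave 0 to 1 (2.53 to 3.87% of all tested genes higher), namely Mrpl12 without non-diabetic replicate 1 or diabetic saline replicate 4, and Mrpl13 without non-diabetic replicate 2 or diabetic saline replicate 2. The cause was not tested. No alternative called a member lower or called any between the diabetic groups, where DESeq2 set no adjusted p for any member and is not counted. A median of 4 to 12 reads per member limits every single-gene statement. No paired analysis was run, because the labels name no pairing between libraries of different groups.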
